A study of Rattus norvegicus with 6 samples.

Results

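The mitochondrial genome carries the genes of a small set of respiratory chain subunits, and the reads on these genes were compared between the thyroid of non-pregnant (NP) rats and of rats on day 18 of pregnancy (LP, late pregnancy). All animals were adult Sprague-Dawley females, the day of the vaginal plug was counted as day 1 of pregnancy by the study, and the groups carried no transgene and received no treatment. Whole thyroid tissue was sequenced after poly(A) selection, with counts for 3 samples of each group. Of 10 genes sought by symbol (Mt-co1, Mt-co2, Mt-co3, Mt-cyb, Mt-nd1, Mt-nd2, Mt-nd4, Mt-nd5, Mt-atp6 and Mt-atp8), 8 were found among the 15388 genes of the count tables. No row is named Mt-co3 or Mt-cyb. Rows named Mt-cox3 and Mt-cytb, other symbols for cytochrome c oxidase subunit III and cytochrome b, are given beside the 8 but were not counted among them. With Mt-nd3, Mt-nd4l and Mt-nd6, the tables held 13 rows of the mitochondrial genome in all. The genes were chosen by name, but this family was proposed with results of the same comparison known. Its fold changes and adjusted p-values are therefore a description of the fit and no independent evidence of a change.

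The respiratory chain moves electrons through complexes I, III and IV of the inner mitochondrial membrane, and the proton gradient built in this way drives ATP synthase, also called complex V. Each of these 4 complexes contains subunits made inside the mitochondrion together with a larger number made from nuclear genes. Complex II is built from nuclear genes alone. The mitochondrial genome is transcribed from both strands into long precursors that are cut into single messages, and nearly all of its protein genes, with the exception of Mt-nd6, are read from the same strand. Thyroid follicular cells use ATP for iodide uptake and hormone secretion, and mitochondria are particularly abundant in muscle.

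The depth was between 2752144 and 2965936 counted reads in the NP samples and between 3224104 and 3449857 in the LP samples. Replicates 2 and 3 of each group could not be told apart beyond counting noise (chi-square per degree of freedom 1.02 for NP and 0.995 for LP, where 1 is the value for 2 draws from 1 library), while replicate 1 stood apart (3.70 to 4.11). Their mean was therefore entered as a single sample wherever a mean ± SD is given, which leaves n = 2 in each group. The main fits did not do so: their SEs, adjusted p-values and calls treat replicates 2 and 3 as separate samples. The thyroid label held, since the 11 follicular cell markers together took between 23.8% and 25.4% of the NP reads and between 23.6% and 25.1% of the LP reads, Tg alone taking 23.0% to 24.5% of NP. Each of the 8 genes had at least 1876 reads in every sample, far above the floor of 3 reads (0.870 to 1.09 CPM, reads scaled to a common library size). Counting error was therefore small beside the differences between NP and LP in the levels of these genes. It was not small beside every ratio or share inside the family given below.

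The 8 genes together took a larger share of the reads in LP than in NP. They held 3.05%, 3.01% and 2.99% of the counted reads in NP samples 1, 2 and 3, and 4.40%, 4.30% and 4.32% in LP samples 1, 2 and 3. The groups did not overlap, and the lowest LP value was above the highest NP value by more than the whole range within either group. The mean share rose from 3.03% ± 0.035 (SD, n = 2) to 4.35% ± 0.059, a ratio of 1.44. The 95% Wilson interval of the share was 3.03% to 3.07% in NP sample 1 and 4.37% to 4.42% in LP sample 1, and covers counting error only. The difference is given without a test, because the family was proposed with it known. All 13 rows of the mitochondrial genome held between 4.32% and 4.40% of the NP reads and between 6.14% and 6.28% of the LP reads.

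**Figure D1:**
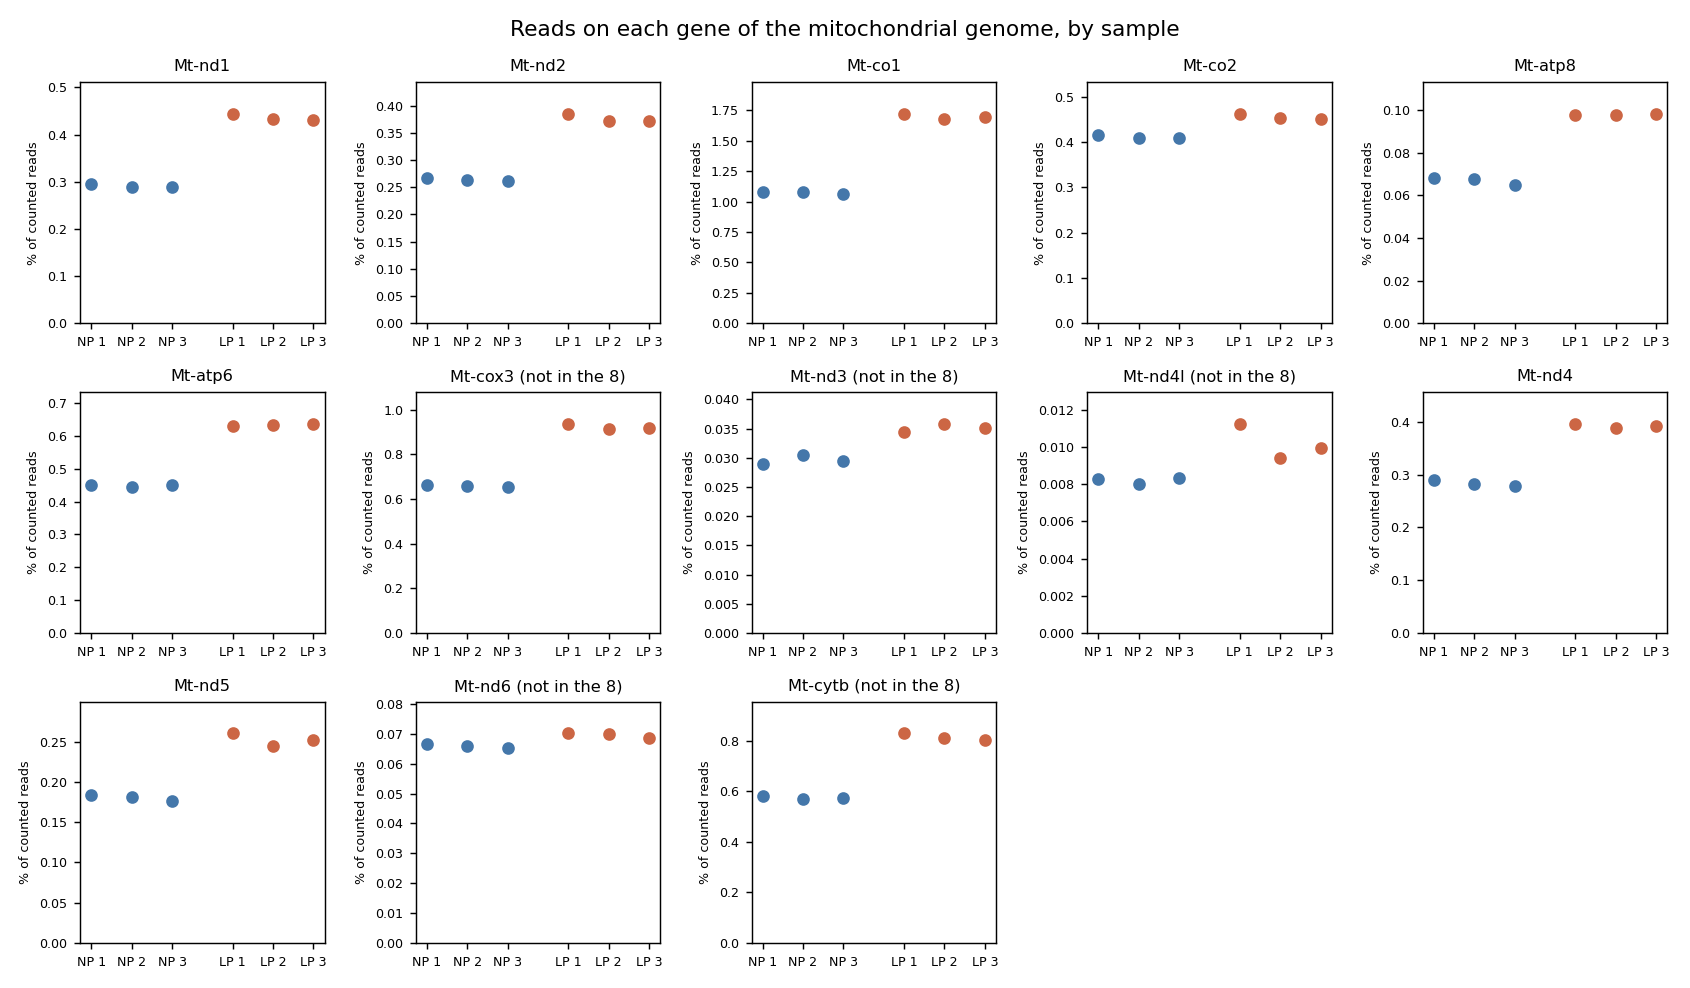
Each panel plots 1 gene of the mitochondrial genome, with the 6 samples on the horizontal axis (NP blue, LP orange) and the percent of counted reads on the vertical axis, which starts at 0. In all 13 panels the 3 LP points lie above the 3 NP points, with a wide gap for Mt-co1 and narrow gaps for Mt-co2 and Mt-nd6. The share of all genes whose groups do not overlap was not counted, so no background stands beside this.

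The difference between LP and NP was fitted over 11738 genes with edgeR (quasi-likelihood F-test after TMM scaling), and p-values were adjusted by Benjamini-Hochberg. All 8 genes were higher in LP with an adjusted p-value below 0.05, against a background of 15.3% of all genes tested that were called in this direction and 11.7% in the other. When the libraries were scaled by their totals alone, 1461 genes were called higher and 2146 lower, in place of 1794 and 1374, and the 8 genes were still called higher. Deeply counted genes are called more often in 1 direction or the other. Of the 56 genes with at least as many reads as Mt-atp8, the lowest of the 8, 17 (30.4%) were called higher in LP and 22 (39.3%) lower. In each direction 1.79% passed a 2-fold change. The 17 include the 8 genes, Mt-cox3 and Mt-cytb, so the share called higher is made mostly by the mitochondrial genome itself and is no separate background. The changes were moderate, since none of the 8 exceeded the study's fold change cutoff of 2, which with an adjusted p-value below 0.05 was passed by 4.9% of all genes upward and 0.537% downward. The log2 fold changes of the 8 lay between 0.22 and 0.74, with a median of 0.58, beside a median of -0.0089 over all genes tested. In bulk tissue, a change in the number of cells of a type and a change in the RNA of each cell cannot be told apart.

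Complex IV, cytochrome c oxidase, passes electrons to oxygen, and its subunits held both the largest and the smallest change among the 8. Mt-co1 (ENSRNOT00000050156), the catalytic subunit I with its haem groups, had 10626, 10434 and 10281 CPM in NP samples 1, 2 and 3, and 17726, 17197 and 17292 CPM in the LP samples. The level rose from 10492 ± 190 CPM (SD, n = 2) to 17485 ± 341 CPM (log2 fold change 0.74, standard error or SE 0.016). Mt-co2 (ENSRNOT00000043693), subunit II, which takes electrons from cytochrome c, had 4086, 3985 and 3981 CPM in NP and 4766, 4625 and 4621 CPM in LP. Although its groups did not overlap either, the change was small, from 4035 ± 73.1 CPM to 4694 ± 101 CPM (log2 fold change 0.22, SE 0.024). The row of subunit III, Mt-cox3, which was not among the 8, rose less than Mt-co1 (log2 fold change 0.56, SE 0.019).

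Complex I, NADH dehydrogenase, was represented by 4 of the 8 genes, all of which encode subunits of its proton-pumping membrane arm. Mt-nd1 (ENSRNOT00000047550) had 2896, 2809 and 2801 CPM in NP and 4574, 4419 and 4417 CPM in LP (log2 fold change 0.66, SE 0.026). It showed the second largest change of the 8. Mt-nd2 had 2635, 2560 and 2531 CPM in NP and 3967, 3803 and 3804 CPM in LP (log2 fold change 0.58, SE 0.028). Mt-nd4 had 2851, 2738 and 2709 CPM in NP and 4083, 3960 and 4002 CPM in LP (log2 fold change 0.54, SE 0.028). Mt-nd5 had 1812, 1759 and 1711 CPM in NP and 2679, 2503 and 2579 CPM in LP (log2 fold change 0.56, SE 0.034). For each of these 4 genes the lowest LP sample was above the highest NP sample. How often this holds among all genes was not counted, here or for the other genes described. The SE of a gene does not measure a difference between genes, and whether Mt-nd2, Mt-nd4 and Mt-nd5 differed in their change was not tested.

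Complex V was represented by both of its mitochondrial genes. Mt-atp6, the subunit that forms part of the proton channel, had 4429, 4325 and 4383 CPM in NP and 6475, 6464 and 6517 CPM in LP (log2 fold change 0.57, SE 0.020). Mt-atp8, a short subunit of the stalk, had 671, 659 and 630 CPM in NP and 1008, 999.6 and 1006 CPM in LP (log2 fold change 0.62, SE 0.042). The groups did not overlap for either gene. The genes overlap and lie on 1 shared message. How reads in the overlap were counted is not stated, so the division of reads between them is uncertain. The ratio of Mt-atp8 to Mt-atp6 reads ranged from 0.144 to 0.152 over the NP samples and from 0.154 to 0.156 over the LP samples, with a log2 change of 0.055 and a 95% counting interval of 0.0046 to 0.10.

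**Figure D2:**
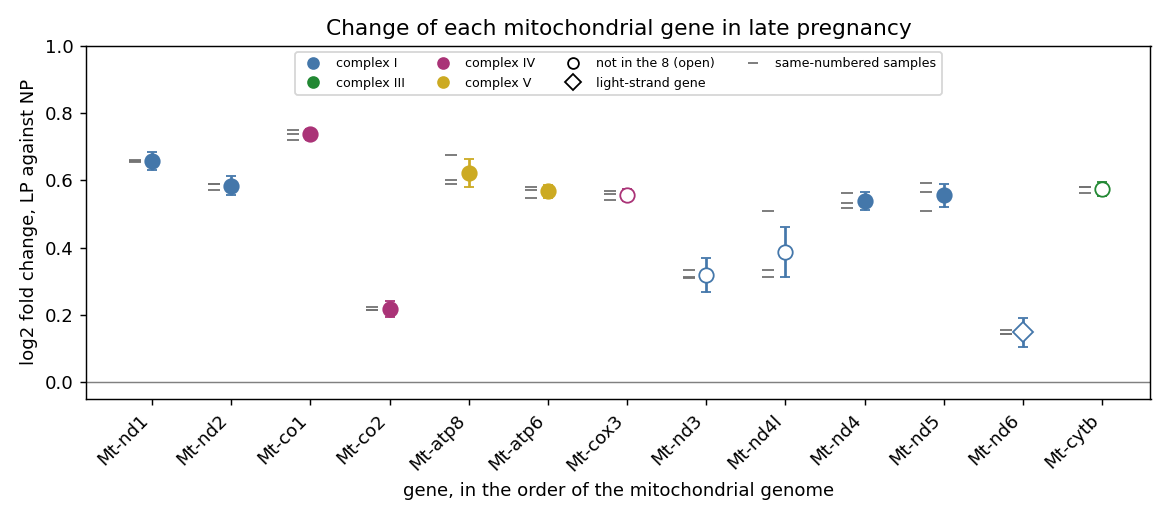
Log2 fold change of LP against NP (vertical axis) for the 13 genes in the order in which they lie on the mitochondrial genome (horizontal axis, not to scale), with bars of 1 SE from edgeR, colour for the complex, filled symbols for the 8 genes and grey ticks for the values of same-numbered samples. Mt-co2 (0.22), Mt-nd3 (0.32), Mt-nd4l (0.39) and Mt-nd6 (0.15) lie below the other 9 genes, which range from 0.54 to 0.74.

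The remaining rows of the mitochondrial genome were higher in LP as well. Mt-cytb, the only subunit of complex III that the mitochondrion encodes, had 5713, 5533 and 5557 CPM in NP and 8532, 8278 and 8202 CPM in LP (log2 fold change 0.57, SE 0.021). The 3 remaining rows of complex I changed less. Mt-nd3 rose (log2 fold change 0.32, SE 0.051) and so did Mt-nd4l (log2 fold change 0.39, SE 0.074). Mt-nd4l had only 228 to 363 reads per sample, and like the pair above it overlaps its neighbour on a shared message, here Mt-nd4. Mt-nd6 had 654, 641 and 635 CPM in NP and 722, 714 and 701 CPM in LP (log2 fold change 0.15, SE 0.042, adjusted p = 0.0151 from edgeR). Its adjusted p-value was 0.16 with library totals alone, 0.108 with replicates 2 and 3 summed, 0.0587 without NP replicate 2 and 0.0761 without NP replicate 3. It is the 1 gene of the 13 on the other strand. The library kit, as named in the protocol, does not keep the strand, so reads of Mt-nd6 cannot be told from reads of the precursor transcribed across it. Copies of mitochondrial sequence also lie in the nuclear genome, and reads shared with them could not be examined from gene counts.

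The members of the family thus did not change by equal amounts, which was examined by taking each gene as a percent of the reads on the 8 genes in the same sample. This measure does not depend on how libraries are scaled against each other. Mt-co2 took 13.6%, 13.6% and 13.7% of these reads in NP and 10.5%, 10.5% and 10.4% in LP, a mean of 13.6% ± 0.033 (SD, n = 2) against 10.5% ± 0.030. Mt-co1 took 35.4%, 35.7% and 35.4% in NP and 39.1%, 39.1% and 39.1% in LP. The share of Mt-nd1 went from 9.64% ± 0.021 to 10.06% ± 0.060. Groups did not overlap for 5 of the 8 genes, with Mt-co1 and Mt-nd1 above and Mt-co2, Mt-nd4 and Mt-atp6 below in LP. Mt-nd2, Mt-nd5 and Mt-atp8 overlapped. For Mt-atp6 the gap was within counting error, at 14.76% in NP sample 1 against 14.73% in LP sample 3. Its groups overlapped when all 13 rows made up the total. No background over other genes stands beside this count. These shares come from the same comparison that chose the family and are likewise a description. Shares of 1 total are tied to each other. With Mt-co1 left out of the total, the shares of Mt-nd2, Mt-nd4, Mt-nd5 and Mt-atp6 were higher and not lower in LP, whereas Mt-co2 fell again, from 21.1% ± 0.079 to 17.3% ± 0.060.

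**Figure D3:**
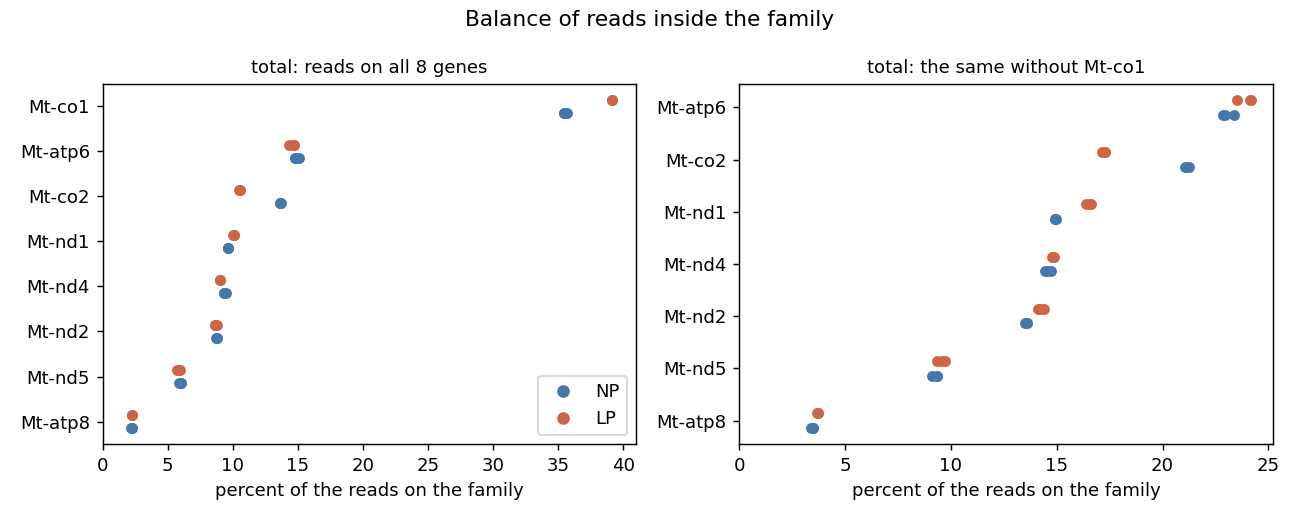
Each gene as a percent of the reads on the family (horizontal axis, from 0), with 1 point for each of the 3 NP (blue) and 3 LP (orange) samples, over the total of all 8 genes on the left and over the total without Mt-co1 on the right. Mt-co2 is the 1 gene that lies lower in LP in both panels, at 10.5% against 13.6% on the left and at 17.3% against 21.1% on the right.

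Ratios between single genes showed the same without any total. The ratio of Mt-co1 to Mt-co2 reads was 2.60, 2.62 and 2.58 in NP and 3.72, 3.72 and 3.74 in LP, a log2 change of 0.52 (95% counting interval 0.50 to 0.54). The ratio of Mt-atp6 to Mt-co2, whose genes are near neighbours on the genome, went from 1.09 ± 0.0067 (SD, n = 2) to 1.38 ± 0.032. By contrast, the ratio of Mt-nd1 to Mt-nd2 changed little, from 1.10 ± 0.0021 (SD, n = 2) to 1.16 ± 0.0061. Mt-nd6 fell against Mt-nd5, with ratios of 0.361, 0.364 and 0.371 in NP and 0.270, 0.285 and 0.272 in LP. These pairs of genes were chosen after the counts were examined, and the intervals cover counting error only.

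The size of the change was also computed for each pair of same-numbered samples. Mt-co2 changed by 0.22, 0.21 and 0.22 on the log2 scale in pairs 1, 2 and 3. The lowest value of any other of the 8 genes in any pair was 0.51, and within a gene the 3 pairs differed by at most 0.087. The gap between Mt-co2 and the other genes was larger than this spread between pairs. Replicates 2 and 3 of a group agree within counting noise and no pairing is stated, so the 3 pairs are not independent repeats. Replicate 1 had the highest level of its group for all 8 genes in NP and for 7 of 8 in LP.

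The nuclear partners of the same complexes were examined as a list. Of 63 nuclear genes tested for subunits of complexes I, III, IV and V, 57 were higher in LP and 1 was lower with an adjusted p-value below 0.05. Over all genes tested, 15.3% were called higher and 11.7% lower. The median log2 fold change of the 63 was 0.56. In complex I, 26 of 30 rose, among them the core subunits Ndufs1 (log2 fold change 1.20) and Ndufs7 (1.13), both of the hydrophilic arm. In complex III all 7 tested rose, among them the Rieske iron-sulphur protein Uqcrfs1 (1.25) and cytochrome c1, Cyc1 (1.01). Complex V had 15 of 15 higher with a median of 0.57, next to 0.57 for Mt-atp6 and 0.62 for Mt-atp8. In complex IV 9 of 11 rose, including Cox5a (0.96) and Cox5b (0.81), while Cox8a fell from 256 ± 28.2 CPM (SD, n = 2) to 226 ± 1.96 CPM (log2 fold change -0.22, SE 0.064). Complex II, which has no mitochondrial gene, had all 4 subunits higher with a median of 0.86. DESeq2 in place of edgeR called 21 of 30 in complex I, 6 of 7 in complex III and 14 of 15 in complex V higher. Over all genes it called 1219 of 11738 higher. Whether nuclear and mitochondrial subunits differed in their change was not tested.

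**Figure D4:**
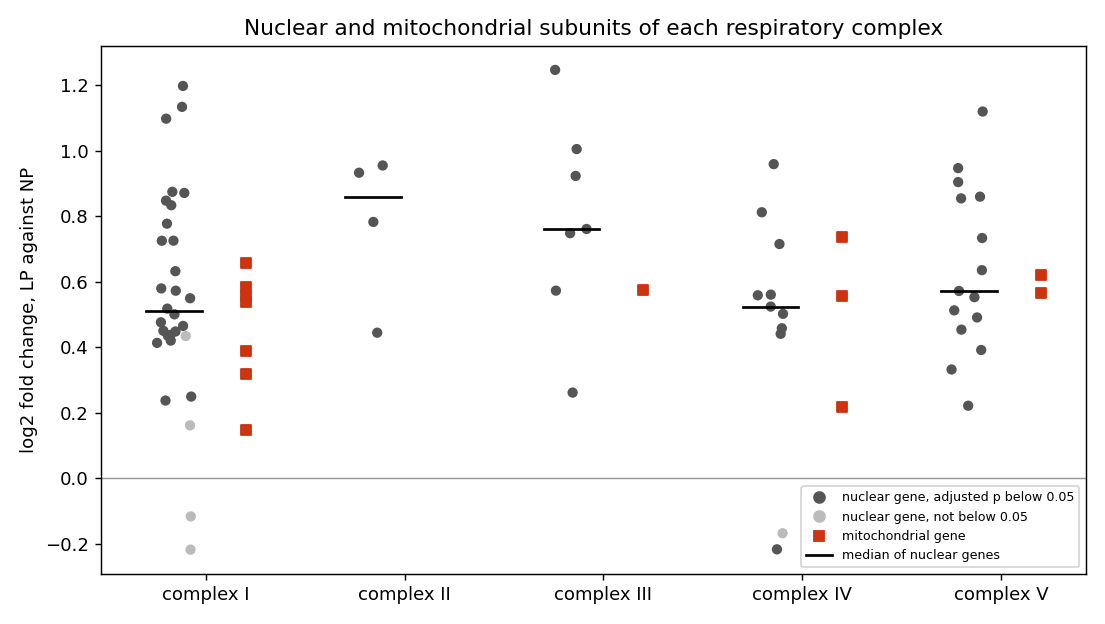
Log2 fold change of LP against NP (vertical axis) for the subunits of each respiratory complex (horizontal axis), with nuclear genes as circles (dark where the adjusted p-value was below 0.05), their median as a bar and mitochondrial genes as red squares. The mitochondrial genes lie inside the range of their nuclear partners in complexes III, IV and V and in complex I, and complex II, with a median of 0.86, has no mitochondrial gene.

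The nuclear genes that transcribe, process and copy the mitochondrial genome were examined as 3 lists, beside the background of 15.3% of all genes called higher. Of 9 genes tested for the transcription of mitochondrial DNA, 1 rose with edgeR, 1 with DESeq2 and 2 with the replicate block (sample numbers as a term of the fit). The first was Mrpl12, a ribosomal protein that also binds the mitochondrial RNA polymerase (log2 fold change 0.47, SE 0.070). The polymerase itself, Polrmt, measured 41.5 ± 5.06 CPM (SD, n = 2) in NP against 46.6 ± 3.65 CPM in LP, and the DNA-packaging factor Tfam 28.4 ± 1.25 CPM against 29.05 ± 2.29 CPM. The 3 samples of each group overlapped with those of the other for both genes, with log2 fold changes of 0.19 (SE 0.12) and 0.019 (SE 0.12), and neither passed the test. These 2 genes were picked for their role after their values were seen. Of 18 genes tested for the processing and stability of mitochondrial RNA, 3 rose, and with the replicate block 4 were higher and 1 was lower. Those called without the block were Lrpprc (0.50, SE 0.072), which stabilizes mitochondrial messages, the RNA-granule protein Grsf1 (0.37, SE 0.067) and Fastk (0.34, SE 0.065). Lrpprc measured 75.8, 70.7 and 73.5 CPM in NP against 111.8, 95.5 and 104 CPM in LP. For copying of mitochondrial DNA, 1 of 8 was called higher, Polg, the DNA polymerase, whose adjusted p-value of 0.0283 with edgeR became 0.26 with DESeq2, while 2 of 8 were called with the replicate block.

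Among 9 regulators of mitochondrial biogenesis, 4 were higher in LP and 1 was lower, and 2 and 1 with library totals alone or with DESeq2. Over all genes tested, edgeR called 15.3% higher and 11.7% lower, and a list this short is not read as a change beyond that. Ppargc1b, a coactivator of genes of oxidative metabolism, had the largest change, from 9, 16 and 13 reads in NP to 45 in each LP sample (log2 fold change 1.67, SE 0.23, adjusted p = 2.37e-05 from edgeR). Esrra, the nuclear receptor through which such coactivators act, rose from 69.6 ± 0.61 CPM (SD, n = 2) to 99.4 ± 1.74 CPM. Ppargc1a (log2 fold change 0.54) and Esrrg (0.44) were called by edgeR, at adjusted p-values of 0.0309 and 0.033, but not by DESeq2, at 0.184 and 0.24. The related coactivator Pprc1 moved the other way, from 55.6 ± 1.81 CPM to 35.4 ± 4.45 CPM (log2 fold change -0.59, SE 0.10).

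Markers of another tissue moved together with the family. Of 19 skeletal muscle markers, 13 were in the tables and 11 were tested, of which 10 rose more than 2-fold, and their summed level went from 23.3 to 75.9 CPM in the NP samples to between 3933 and 4169 CPM in the LP samples. Myh1, a fast muscle myosin, was read 119, 105 and 109 times in LP and never in NP, and the muscle light chain Mylpf was the other marker at 0 in all NP samples. The muscle isoforms of complex IV, Cox6a2 and Cox8b, rose from at most 8 reads in any NP sample to between 572 and 653 in LP. The sum of the 8 mitochondrial genes rose in the same samples from between 29888 and 30502 CPM to between 42998 and 43962 CPM. Acta1, skeletal muscle actin, did not move with the markers that rose. It was read 0, 166 and 144 times in NP and 0, 186 and 185 times in LP. Casq1 did not rise either, but it was not tested and never exceeded 4 reads. It was kept in all sums. Without Acta1, a choice made after its values were seen, the summed markers were 23.3, 19.9 and 25.0 CPM in NP and between 3879 and 4169 CPM in LP. With the reads on the muscle markers removed from the total, the share of the 8 genes differed by 1.34 percentage points between the groups, in place of 1.32. The markers held at most 0.417% of the reads of a sample, so their removal could hardly move this share. It takes out the markers only and not other RNA of muscle, whose part in the change of the family was not tested. Of other cell types, follicular cell markers had 3 genes higher and 3 lower of 11, C cell markers 1 and 1 of 5, and parathyroid markers 0 and 1 of 3. Over all genes tested, 15.3% were called higher and 11.7% lower, and most of these marker lists are too short to be read against that. Library totals alone gave 3 higher and 6 lower for the follicular cell list and 1 higher and 3 lower for the C cell list, in which DESeq2 called 0 higher and 1 lower. Endothelial markers had 2 of 3 lower, fibroblast markers 1 of 3 and red blood cell markers 2 of 3. Adipocyte and brown fat markers had 0 of 5 called by edgeR or DESeq2 (0 at an unadjusted p below 0.05), and macrophage markers 0 of 4 (3 at that level). With the replicate block, 2 C cell markers were lower, and 1 marker each of the parathyroid, macrophage and fibroblast lists was higher. The summed fibroblast markers were low in replicate 1 of both groups, at 587 CPM in NP and 715 CPM in LP, against 1178 to 1315 CPM in the other samples.

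**Figure D5:**
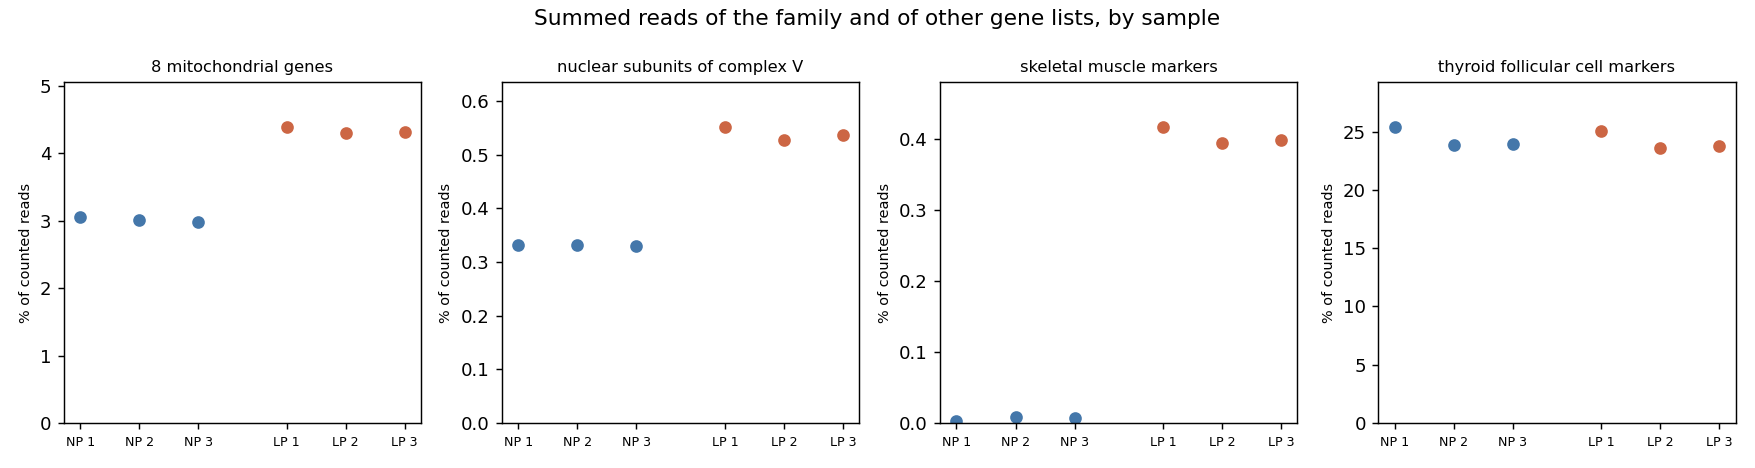
Percent of counted reads (vertical axes, from 0, different in each panel) in the 6 samples for the 8 mitochondrial genes, the nuclear subunits of complex V, the skeletal muscle markers and the thyroid follicular cell markers. The 8 genes lie between 2.99% and 3.05% in NP and between 4.30% and 4.40% in LP. The muscle markers lie at no more than 0.00759% in NP and at 0.393% or more in LP. The summed follicular markers, of which Tg is by far the largest part, overlap between the groups, which does not speak for each marker.

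The nuclear genes whose levels over the 6 samples were most like the mean of the 8 genes were Eef1a2, Mdh1, Nqo1, Rabep2 and Got1, with Pearson correlations of log2 CPM between 0.9996 and 0.9997. This is a description over 6 samples in 2 groups, of which 2 pairs are near copies, and 150 of the 3635 genes compared reached a correlation of 0.99, so that the order mostly reflects the gap between NP and LP. Mdh1, the cytosolic malate dehydrogenase, had a change close in size to that of Mt-co1, with 288, 283 and 275 CPM in NP and 474, 462 and 461 CPM in LP (log2 fold change 0.72, SE 0.050). Eef1a2, an elongation factor typical of muscle and neurons, changed far more, by 2.88 on the log2 scale. Got1, the cytosolic aspartate aminotransferase, changed by 3.37 and Nqo1, a quinone reductase, by 2.34.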

How the data were processed

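Thyroid poly(A)+ RNA of 3 NP and 3 LP rats was sequenced from TruSeq libraries. Alignment by the authors used TopHat 1.4.0 (per the submitters' processing notes) and build rn5. HTSeq-count assigned reads to Ensembl models, and raw counts were deposited without normalization. The counting mode and strand setting are not given in the sources used here. Genes, lists and tests were chosen with earlier results of these data known. Tools were edgeR 4.0.16 and DESeq2 1.42.0 under R 4.3.3: TMM, edgeR's default filter, quasi-likelihood test of LP against NP, Benjamini-Hochberg adjustment over 11738 genes. Each SE was derived from the size of the log2 fold change and its F value. CPM values are scaled by TMM, and sums over a list by library totals. Gene lengths were not used, so levels were not compared between genes. Chromosome positions and sequences of the mitochondrial genes were not used here.

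The counts came to 2752144 to 3449857 reads per sample, and the lowest level that 3 reads allow was 0.870 to 1.09 CPM. Deviations from the group means correlated between same-numbered NP and LP samples (correlations across genes 0.49, 0.22 and 0.19 for numbers 1, 2 and 3, the numbers being those of the sample titles), but so did NP replicate 2 with LP replicate 3 and NP replicate 3 with LP replicate 2 (0.22 each). Deviations cancel within a group, so with replicates 2 and 3 near copies their correlations largely follow from that of number 1. The labels do not say what a number stands for. P-values measure the spread between these samples, which may be technical, since replicates 2 and 3 of a group agree within sampling noise. Alternatives were the replicate block, each sample left out, replicates 2 and 3 summed, other filters, other scalings and DESeq2. Named were all rows of the mitochondrial genome, up to 3 highest and 3 lowest called genes of each list and the 5 nuclear genes of at least 50 CPM most like the family, of which those that matter here are printed, and 1 gene is not reported here. The fit was also run on simulated counts drawn as independent samples, which cannot show how it behaves with near-copy replicates.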

Additional observations from a re-analysis of the deposited data

How the results depend on the processing

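All 8 genes were called higher in LP under each alternative run, the replicate block (8 of 8 called) and every left-out sample included, and no member reached a 2-fold change in any. The smallest log2 fold change of a member was 0.15, that of Mt-co2 with library totals alone. Counting all 13 rows of the mitochondrial genome, chosen after the data were seen, 13 were called. Mt-nd6 was the 1 row that lost its call, under 4 alternatives, with log2 fold changes of 0.076 to 0.14. The genes past a 2-fold change numbered 638, 641 with the replicate block, between 646 and 693 with 1 sample left out, and 315 with a mean of at least 50 reads, which tests fewer genes. Without a fold cutoff edgeR called 3168 genes and DESeq2 1922. The difference in the share of reads on the 8 genes stayed between 1.29 and 1.34 percentage points with 1 sample left out. Of the shares inside the family, those without Mt-co1 in the total turned from lower to higher in LP for Mt-nd2 (0.677 points), Mt-nd4 (0.254), Mt-nd5 (0.277) and Mt-atp6 (0.877), since Mt-co1, which gained, had been taken out, and that of Mt-nd2 was 0.0161 over all 13 rows. Depth limits Mt-nd4l, with 228 to 363 reads, more than the other rows. The block changed no call of a mitochondrial gene, and the nuclear and marker lists whose counts it moved by over 1.5 times are given with their counts above, beside complex IV, with 2 nuclear subunits lower in place of 1. Library totals alone also gave 2 lower in complex IV, 1 lower in the processing list and 0 called in the copying list.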

Other observations

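Other nuclear genes of mitochondria did not move as 1 group. Of 14 general mitochondrial proteins tested, 6 were higher in LP and 1 was lower, beside 15.3% higher and 11.7% lower over all genes tested. Their median log2 fold change was 0.094, beside -0.0089 over all genes. With library totals alone 5 were higher and 3 lower, with a median of 0.022. Slc25a4, the ADP/ATP carrier typical of muscle and heart, went up from 170 ± 11.8 CPM (SD, n = 2) to 1082 ± 46.9 CPM (log2 fold change 2.63, SE 0.056), whereas Slc25a5, the carrier of many other tissues, fell from 103 ± 3.14 CPM to 75.8 ± 1.02 CPM (log2 fold change -0.43, SE 0.062). The outer membrane channel Vdac1 (0.78, SE 0.059) and citrate synthase, Cs (0.77, SE 0.059), also rose. Hspa9, the chaperone of the matrix, changed by 0.20 (SE 0.055), and its adjusted p-value of 0.0107 with edgeR became 0.0769 with library totals alone.

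Of 12 genes tested for translation in mitochondria, 3 were higher in LP and 1 was lower with edgeR, and 2 were higher with DESeq2. Over all genes tested, edgeR called 15.3% higher and 11.7% lower, and DESeq2 called 1219 of 11738 higher. The elongation factors Tufm (0.62, SE 0.064) and Gfm1 (0.62, SE 0.097) rose, while the initiation factor Mtif3 changed by -0.52 (SE 0.13) and was called by edgeR (adjusted p = 0.00643) but not by DESeq2 (adjusted p = 0.0557). None of the non-coding RNAs sought, mitochondrial ribosomal RNAs included, had a row in the tables analysed here.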
